A study of Caenorhabditis elegans with 39 samples.

Results

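miR-251 and miR-252 are microRNAs (miRNAs) of Caenorhabditis elegans that belong to one seed family. All arm entries of their hairpins were taken from the count table by name, which gave 3 of its 437 miRNA entries: miR-251, listed without an arm, and both arms of the other hairpin, miR-252-5p and miR-252-3p. Small RNA was sequenced from whole worms of 3 genotypes: N2, the standard wild type, and the alg-1 mutants labelled Alg1A and Alg1E, both in the N2 background. The labels do not spell out the letters A and E. Worms were collected hourly at 25 degrees, from 18 to 30 h after L1 larvae in synchrony had been put on plates. This gave 13 libraries per genotype, 1 for each hour, and 39 in all. No replicate, culture or batch is named in the labels, so the p-values rest on how far hourly libraries scatter, and that scatter may be technical.

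A miRNA is cut from a hairpin precursor and loaded into an Argonaute protein, and ALG-1 is one of the Argonautes that serve miRNAs in this worm. Usually 1 strand of the duplex is kept, and the other arm gives few reads. The loaded strand finds target mRNAs mainly through its seed, a short stretch near its start, so miRNAs with the same seed can bind overlapping sets of mRNAs. miR-252 has relatives with the same seed in insects. The 2 hairpins are not neighbours. That of mir-251 lies on chromosome X from 11004728 to 11004824 on the + strand (WBcel235, the assembly also called ce11), with its mature miRNA from 11004746 to 11004767. It overlaps no annotated gene, and del-5, a protein-coding gene on the opposite strand, lies 160 bases to its right. The mir-252 hairpin lies on chromosome II from 11446863 to 11446960 on the - strand. It sits in an intron of the protein-coding gene W02B12.13 and inside the non-coding RNA gene W02B12.17, both on the + strand. Its annotated mature arms run from 11446918 to 11446940 and from 11446883 to 11446901. Whether the authors' counting used strand is not given in the sources used here, so reads of W02B12.17 at these positions cannot be told apart from miR-252 reads.

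The libraries held 1146950 to 4668890 miRNA reads, with medians of 3529334 in N2, 2892326 in Alg1A and 2105603 in Alg1E. Levels are counts scaled to library size with TMM factors (CPM, reads for each 1e+06 scaled reads), a scaling that takes the bulk of miRNAs as unchanged. The muscle miRNA miR-1-3p, the neuronal miR-124-3p and lsy-6-3p, the intestinal miR-60-3p and all 8 miRNAs of the mir-35 group known from embryos had reads in every genotype. The Alg1A libraries of 18 and 19 h stood apart: miR-1-3p was at 36469 and 17156 CPM there, against at least 66512 CPM in the other 37 libraries. miR-60-3p was at 7335 and 5238 CPM in them, against at least 8049 elsewhere. The Alg1E library of 27 h was singled out because it held miR-251 and miR-252-5p at their lowest levels. In RNA from whole worms, fewer cells of a type and less RNA per cell cannot be told apart.

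miR-251 was the most abundant of the 3 entries. In N2 it ranged from 949 to 2001 CPM with a median of 1531 and a mean of 1558 ± 276 (SD, n = 13), the 52nd highest mean of the 437 entries. In Alg1A it ranged from 1153 to 3577 CPM with a median of 1540 and a mean of 1746 ± 601 (SD, n = 13). In Alg1E it ranged from 605 to 3961 CPM with a median of 1580 and a mean of 1977 ± 1067 (SD, n = 13). The 3 medians lay close together, and the spread over hours was widest in Alg1E.

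miR-252-5p, the abundant arm of its hairpin, ranged from 483 to 1167 CPM in N2 with a median of 776 and a mean of 766 ± 177 (SD, n = 13). It ranged from 489 to 1274 CPM in Alg1A with a median of 868 and a mean of 932 ± 206 (SD, n = 13). In Alg1E it ranged from 364 to 1649 CPM with a median of 1115 and a mean of 1129 ± 310 (SD, n = 13). The ranges overlap, and the order of the means was N2, Alg1A, Alg1E. Each library held at least 980 reads of miR-252-5p and at least 1683 of miR-251, so counting error is small beside the spread between hours. miR-252-3p gave 0 to 29 reads per library.

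**Figure D1:**
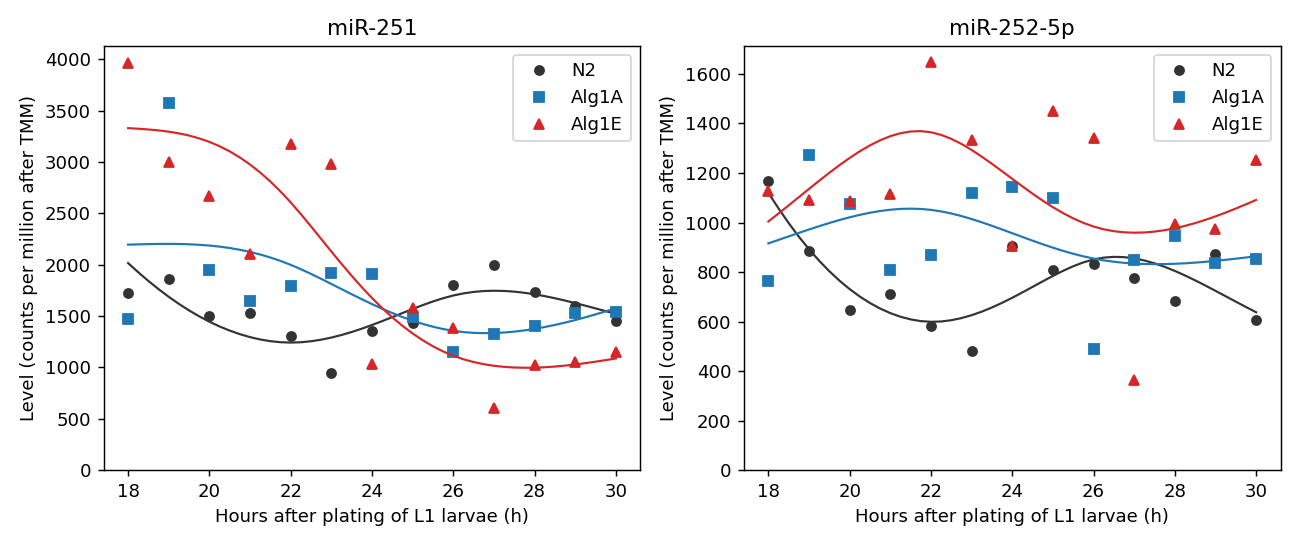
Levels of miR-251 (left) and miR-252-5p (right) in CPM after TMM (y axis) against hours after plating (x axis), 1 point per library and 13 libraries per genotype, with curves from edgeR's spline fit within each genotype. miR-251 in Alg1E starts at 3961 CPM at 18 h, above N2, and lies below N2 from 26 h on.

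The comparison of Alg1E with N2 over all hours asked whether these miRNAs differ in level in this mutant. miR-252-5p was higher in Alg1E, by 0.54 on the log2 scale (SE 0.164, 95% interval 0.21 to 0.87), 1.45-fold. It was higher at 11 of 13 hours, with edgeR adjusted p = 0.00393. miR-251 differed by 0.19 (SE 0.202, 95% interval -0.23 to 0.60, edgeR adjusted p = 0.421) and was higher at 7 of 13 hours. A miRNA is called here when edgeR's quasi-likelihood test, in a model of genotype plus hour, gives an adjusted p under 0.05. With that rule 1 of the 2 members that passed the filter on low counts was called, where 74.9% of 243 tested miRNAs were called. As shares of all 243, 36.2% were called higher and 38.7% lower. A call in this comparison was therefore common. miR-252-5p ranked 78th of 243 from the top by log2 difference.

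The size of these differences depends on the scaling between libraries. With TMM computed without minor arms, the strands that give fewer reads, the median of all miRNAs shifted by 0.42, and miR-251 was then called higher as well (0.62, edgeR adjusted p = 0.00971). miR-252-5p was called with each scaling, from 0.42 with RLE factors to 0.97. Set against N2 libraries 2 h younger, miR-252-5p differed by 0.42 and was not called (edgeR adjusted p = 0.0833), and the sign of miR-251 changed (-0.13). The windows of hours used further below were not compared with younger N2 libraries.

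Between Alg1A and N2, 0 of the 2 members were called by edgeR, where 10.7% of miRNAs were, and 0 had an unadjusted p under 0.05 or were called by DESeq2. miR-251 differed by 0.09 (SE 0.197, 95% interval -0.31 to 0.49, edgeR adjusted p = 0.789) and miR-252-5p by 0.28 (SE 0.162, 95% interval -0.06 to 0.61, edgeR adjusted p = 0.253). The latter was higher in Alg1A at 10 of 13 hours. Between Alg1E and Alg1A, 0 of the 2 were called by edgeR or DESeq2 and 0 had an unadjusted p under 0.05, where 78.2% of miRNAs were called. miR-252-5p differed by 0.26 there (95% interval -0.07 to 0.60, edgeR adjusted p = 0.140) and miR-251 by 0.10 (95% interval -0.31 to 0.50, edgeR adjusted p = 0.675). With total counts (0.45) and with TMM from major arms (0.60), miR-252-5p was called higher in Alg1E against Alg1A. It was also called without the Alg1E library of 27 h (0.36, edgeR adjusted p = 0.0194). That library was singled out for its low miR-252-5p, so leaving it out was bound to raise the difference, and the call lends no support. The intervals leave room for differences of about the size seen against N2.

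The mean over hours hides what miR-251 did in Alg1E. Its level there was 3961, 3000 and 2670 CPM at 18, 19 and 20 h, against 1723, 1862 and 1502 CPM in N2. At 26, 27, 28, 29 and 30 h it was 1389, 605, 1020, 1051 and 1148 CPM in Alg1E, against 1803, 2001, 1737, 1603 and 1451 CPM in N2. The groups did not overlap in either window, with Alg1E above N2 in the early hours and below it in the late ones. How many of the other miRNAs separate in this way was not counted, so the separation is not shown to be particular to miR-251. From 21 to 25 h the groups overlapped for miR-251, at 1029 to 3176 CPM in Alg1E and 949 to 1531 in N2. Hour by hour, miR-251 was higher in Alg1E at each of the 6 hours from 18 to 23 h, by 0.46 to 1.65 on the log2 scale. At each of the 5 hours from 26 to 30 h it was lower, by -0.34 to -1.73.

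Tested by window, miR-251 was higher in Alg1E at 18 to 20 h (0.92, 95% interval 0.32 to 1.53, edgeR adjusted p = 0.00875), where 55.1% of miRNAs were called. It was higher at 21 to 25 h too (0.72, 95% interval 0.26 to 1.19, edgeR adjusted p = 0.00620), where 67.5% were called. At 26 to 30 h it was lower (-0.72, 95% interval -1.19 to -0.25, edgeR adjusted p = 0.00660), where 62.1% were called. Of all 243 miRNAs, 1 (0.412%) was called higher at 18 to 20 h and lower at 26 to 30 h, and that was miR-251. In the opposite order, 0 (0%) were called by edgeR. This count was chosen after the data had been seen, so it cannot show that the switch is particular to miR-251. The late decrease depends on the scaling: it was -0.34 and not called with TMM from major arms (edgeR adjusted p = 0.217) and -0.47 with total counts (edgeR adjusted p = 0.0864). With those 2 scalings, the miRNAs called in both windows with this switch were others, miR-1020-5p in both and miR-62 in the former. Without the Alg1E library of 27 h the late difference was -0.58 (edgeR adjusted p = 0.0280). It also depends on where the window starts, since from 23 to 30 h it was -0.19 and not called (edgeR adjusted p = 0.413).

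miR-252-5p did not share this switch. It was higher in Alg1E at 21 to 25 h (0.89, 95% interval 0.40 to 1.37, edgeR adjusted p = 0.00143), from 907 to 1649 CPM against 483 to 903 in N2, ranges that did not overlap. How many other miRNAs had separate ranges there was not counted, so this is not shown to be particular to miR-252-5p. The differences of miR-252-5p at 18 to 20 h (0.29, edgeR adjusted p = 0.452) and at 26 to 30 h (0.38, edgeR adjusted p = 0.157) were not called. Without the Alg1E library of 27 h, where miR-252-5p was at 364 CPM, the late difference was 0.60 and called (edgeR adjusted p = 0.0102). Leaving out this lowest value was bound to raise the difference, so that call lends no support. The late difference was called as well with TMM from major arms (0.77), and so was the early one (0.79). With 2 windows, both the one of 18 to 22 h (0.60) and the one of 23 to 30 h (0.53) were called.

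In Alg1A against N2, 0 of the 2 were called by edgeR in any window, where 2.06%, 5.76% and 4.12% of miRNAs were called from the earliest to the latest. At an unadjusted p under 0.05 there was 1, miR-252-5p at 21 to 25 h (0.53, edgeR adjusted p = 0.176). miR-251 differed by 0.46, 0.41 and -0.31 in the 3 windows, signs that match those of Alg1E in order. Both mutants were compared with the same N2 libraries, so the match is not independent.

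**Figure D2:**
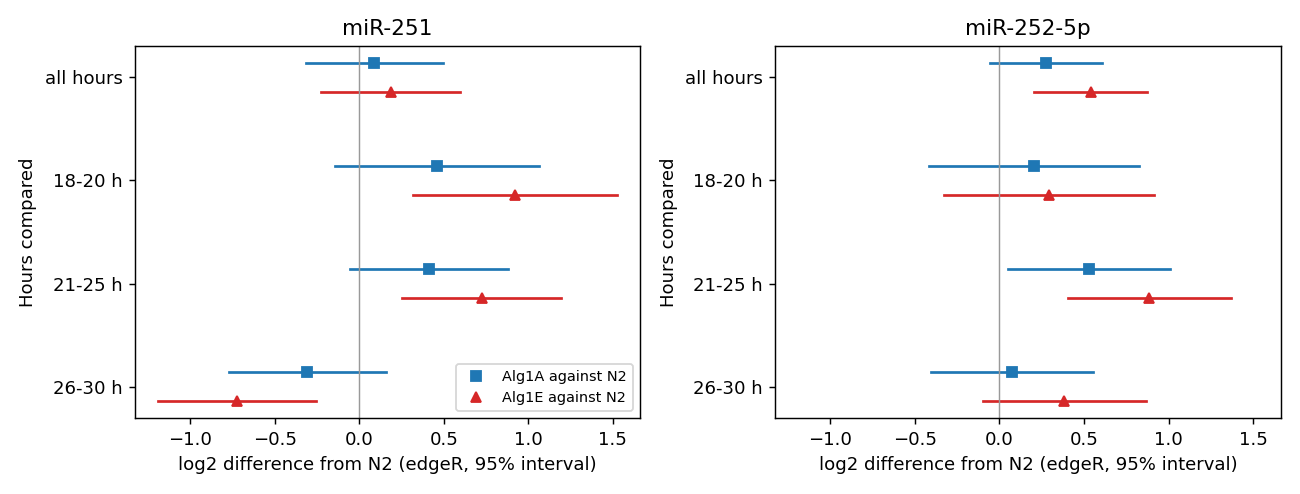
Log2 difference from N2 (x axis) for miR-251 (left) and miR-252-5p (right) over all hours and in 3 windows of hours (y axis), in Alg1A (squares) and Alg1E (triangles), with 95% intervals from edgeR. miR-251 in Alg1E runs from 0.92 at 18 to 20 h to -0.72 at 26 to 30 h, while the estimates for miR-252-5p lie above 0 in every window.

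Within each genotype, levels were fitted as a smooth curve in hours to test for change over time. In Alg1E, miR-251 fell by 1.61 on the log2 scale from the fitted value at 18 h to that at 30 h, to 0.327 times its early level (edgeR adjusted p = 0.00207), where 25.1% of all tested miRNAs changed with time. Those called lower made up 11.1% of all tested. It had the 21st smallest p of 243. In N2 the fitted change of miR-251 was -0.41 (edgeR adjusted p = 0.0825) and in Alg1A -0.48 (edgeR adjusted p = 0.100), and neither was called, where 39.5% and 44% of miRNAs were. The Alg1A change was called in several alternatives, as at -0.15 without the libraries of 18 and 19 h (edgeR adjusted p = 0.0236), and the N2 change with a spline of 4 degrees of freedom (edgeR adjusted p = 0.0192). Without the libraries of 18 and 19 h, the Alg1A curve was extended back to 18 h. In N2 the lowest level of miR-251 was at 23 h and the highest at 27 h.

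For miR-252-5p the called change was in N2, from 1167 CPM at 18 h to 483 at 23 h and 606 at 30 h (fitted change -0.81, edgeR adjusted p = 0.0378). That call was lost with 7 of the 13 hours left out in turn, with total counts (edgeR adjusted p = 0.0601) and with a straight line in hours (edgeR adjusted p = 0.481). In Alg1E (0.12, edgeR adjusted p = 0.642) and Alg1A (-0.08, edgeR adjusted p = 0.690) miR-252-5p was not called.

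The time course of miR-251 differed between Alg1E and N2 in a direct test, the interaction of genotype and time (edgeR adjusted p = 0.00246). Its fitted change over these hours was lower by 1.21 in Alg1E on the log2 scale, a difference of -1.21. Of 243 miRNAs, 33.3% were called in this test, and miR-251 had the 6th smallest p. The call held in each of the alternatives tried, and against N2 libraries 2 h younger the difference was -1.04 (edgeR adjusted p = 0.0433). The size of the difference rests on the first and last hours, at -0.68 without 18 h and -1.77 without 30 h, both called. When an end hour was left out, the fitted curves were extended to it. For miR-252-5p the difference was 0.93 and not called (edgeR adjusted p = 0.166), and it was 0.29 without 30 h and 0.0034 with a straight line in hours. Between Alg1A and N2, where 4.53% were called, the time courses of miR-251 (edgeR p = 0.0198, adjusted p = 0.158) and miR-252-5p (edgeR p = 0.0886, adjusted p = 0.314) were not called. Between Alg1E and Alg1A, where 17.7% were, the values were -1.14 for miR-251 (edgeR adjusted p = 0.145) and 0.20 for miR-252-5p (edgeR adjusted p = 0.983). miR-251 in Alg1A was at 1472 CPM at 18 h and 3577 at 19 h, the pair of libraries that stood apart.

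Some markers of cell types differed between Alg1E and N2 in the same windows. The summed level of the neuronal miR-124-3p and lsy-6-3p in Alg1E was 290 to 347 CPM at 18 to 20 h and 83.7 to 181 at 26 to 30 h, against 246 to 351 and 174 to 256 in N2. miR-124-3p was lower in Alg1E at 26 to 30 h (-1.03, edgeR adjusted p = 4.27e-04), lsy-6-3p was higher (0.49, edgeR adjusted p = 0.0196), and the intestinal miR-60-3p was lower (-1.18, edgeR adjusted p = 4.68e-04). The higher lsy-6-3p was not called with RLE, while the lower miR-124-3p and miR-60-3p were called with each scaling. At 18 to 20 h, where miR-251 was higher, 0 of these 3 were called by edgeR with TMM, where 55.1% of miRNAs were. Of these 3, 1 (lsy-6-3p) had an unadjusted p under 0.05. It was called higher with total counts and with TMM from major arms. The muscle miR-1-3p was above N2 by 0.42, 0.46 and 0.20 in the 3 windows and was not called with TMM. With TMM from major arms miR-1-3p was called higher at 18 to 20 h (0.92) and 21 to 25 h (0.89), and with total counts at 21 to 25 h (0.72).

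At 21 to 25 h, where both members were higher in Alg1E, 5 of the 8 embryo miRNAs of the mir-35 group were called lower by edgeR and 0 higher. Of all tested miRNAs, 30.5% were called lower in that window and 37% higher. The 5 were miR-35-3p (-0.91), miR-36-3p (-1.36), miR-37-3p (-1.03), miR-38-3p (-0.85) and miR-40-3p (-1.37). The summed level of the 8 was 2428 to 4221 CPM in Alg1E and 2616 to 4960 CPM in N2, ranges that overlap. With RLE 5 were called lower, with total counts 3 and with TMM from major arms 2. Over all hours 5 of the 8 were called lower and 0 higher, where 38.7% and 36.2% of all tested miRNAs were. At 18 to 20 h 0 of the 8 were called with TMM, where 55.1% of miRNAs were. With TMM from major arms miR-41-3p and miR-42-3p were called higher there, and with total counts miR-42-3p. At 26 to 30 h miR-40-3p (-1.11) and miR-41-3p (-1.74) were called lower with TMM, where 29.6% of miRNAs were. With TMM from major arms, of the 8 only miR-40-3p was called at those late hours. For none of these markers was the part in the results on miR-251 and miR-252-5p tested.

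The ratio of miR-251 to miR-252-5p reads within a library does not depend on scaling between libraries. Reads of different miRNAs enter a library with different efficiency, so the ratio was compared only between libraries. In N2 it lay between 1.48 and 2.58 with a median of 2.15. In Alg1A it lay between 1.36 and 2.81 with a median of 1.81. In Alg1E it fell from 3.51, 2.75 and 2.46 at 18, 19 and 20 h to 1.04, 1.66, 1.03, 1.08 and 0.917 from 26 to 30 h. The early Alg1E values were above all 3 of N2 at those hours, and the late ones were below all 5 of N2, which ran from 1.84 to 2.58. How many other pairs of miRNAs separate in this way was not counted.

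Averaged over all hours, the log2 ratio differed by -0.37 ± 0.735 between Alg1E and N2 (SD over 13 hours, lower in Alg1E at 9, exact two-sided sign-flip test, p = 0.0981 and adjusted p = 0.209 over 3 comparisons). It differed by -0.15 ± 0.374 between Alg1A and N2 and by -0.22 ± 0.588 between Alg1E and Alg1A, each with adjusted p = 0.209 in the same exact test. The mean ratio thus did not differ beyond the spread between hours. Without 18 h, where the sign was opposite to the mean, the difference of Alg1E from N2 was -0.50 and passed the threshold (exact test, adjusted p = 0.0396), as it did against N2 libraries 2 h younger (-0.54, exact test, adjusted p = 0.0469).

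Its trend did. The log2 ratio changed per hour by 0.02 in N2, by -0.03 in Alg1A and by -0.15 in Alg1E. The slope in Alg1E was lower than in N2 by 0.17 per hour, a difference of -0.170 (exact two-sided sign-flip test over 13 hours, adjusted p = 0.0205 over 3 comparisons). It also differed from Alg1A, by -0.115 (exact test, adjusted p = 0.030). Between Alg1A and N2 the slopes differed by -0.056 (exact test, adjusted p = 0.0620). This test was added after the levels had been seen. It takes the hours as independent, and how far neighbouring hours resemble each other was not computed for the ratio. Slopes of other pairs were not computed either, so the trend is not shown to be particular to this pair. The comparison with N2 rests in part on 18 h, where the ratio was 1.48 in N2 and 3.51 in Alg1E, since without that hour the difference was -0.144 (exact test, adjusted p = 0.0615). Against N2 libraries 2 h younger it was -0.161 (exact test over 11 hours, adjusted p = 0.178). The difference from Alg1A was lost without 18, 20 or 28 h and without the Alg1A libraries of 18 and 19 h (exact test, adjusted p = 0.0732).

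**Figure D3:**
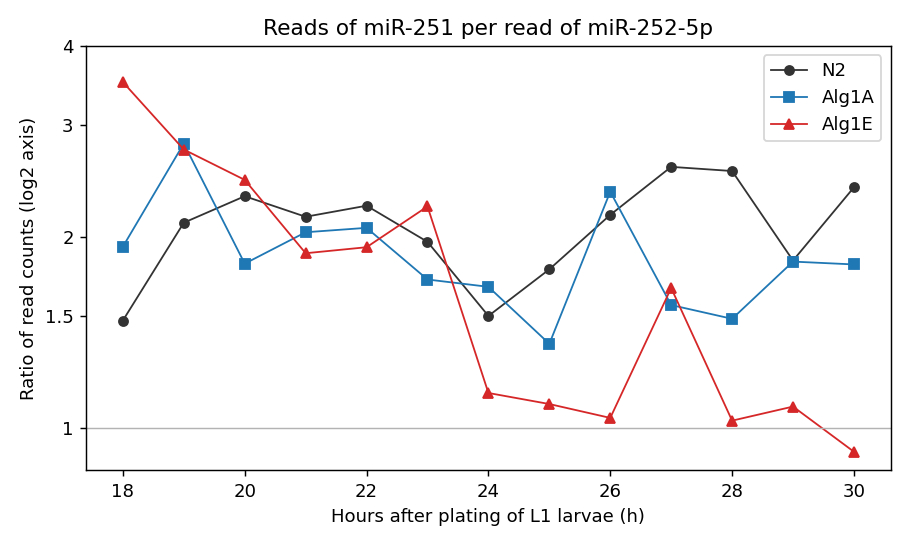
Reads of miR-251 per read of miR-252-5p (y axis, log2 scale) against hours after plating (x axis), 1 point per library, with lines joining the libraries of a genotype. Alg1E falls from 3.51 at 18 h to 0.917 at 30 h, while N2 stays between 1.48 and 2.58.

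The mean ratio of this pair was set beside those of other relatives, with no test of any pair. Among 34 pairs of relatives in 8 families taken by name (let-7, lin-4, mir-46, mir-51, mir-58, mir-72, mir-75 and mir-87), the mean log2 ratio moved between Alg1E and N2 by a median of 0.45 in size, from 0.05 to 1.63. The pair of miR-251 and miR-252-5p moved by -0.37, and 19 of the 34 pairs moved more. Pairs within a family share members and are not independent.

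The less abundant arm, miR-252-3p, was at the edge of detection. It gave 1 to 5 reads per library in N2, 0 to 6 in Alg1A and 0 to 29 in Alg1E. In all it had 36 reads in N2, 0.115% of the reads of both arms (exact 95% binomial interval 0.0804 to 0.159%), and 52 reads in Alg1A, 0.153% (0.115 to 0.201%). In Alg1E it had 146 reads, 0.407% (0.344 to 0.478%). These intervals cover counting error only, and PCR copies may be counted as reads. The Alg1E share was highest at 18 h (0.715%), 19 h (0.746%) and 27 h (1.57%, from 28 reads), and at 24 h there was no read, which allows up to 1.83 CPM. These were the 3 highest shares of all libraries, and 20 h in Alg1E followed with 0.409%. N2 ranged from 0.0424 to 0.239%, and Alg1E overlapped it, with a median of 0.227%.

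miR-252-3p did not pass the filter on low counts, nor the minimum of 10 reads per arm set for testing arm ratios across hairpins. Tested alone, the log2 ratio of miR-252-3p to miR-252-5p was higher in Alg1E than in N2 by 1.18 ± 1.68 (SD over 13 hours, higher at 11 of 13), with adjusted p = 0.0721 over 3 comparisons in an exact two-sided sign-flip test. Against Alg1A it was higher by 0.90 ± 1.47 (exact test, adjusted p = 0.0721), and between Alg1A and N2 by 0.28 ± 1.22 (exact test, adjusted p = 0.429). These tests missed the threshold, and other treatments of the few reads did not. With a minimum of 2 reads per arm, limma called the ratio higher in Alg1E than in N2 (adjusted p = 0.00646), where it called 84.1% of 113 hairpins higher with a median of 1.97. The same fit called it against Alg1A (0.90, adjusted p = 0.0342), where it called 79.6% of the hairpins higher with a median of 1.70. Both values of miR-252 lay below the median. They rest on few reads and move with the prior count, so a smaller shift than in other hairpins is not shown. As a difference in the share of arm reads it was 0.284 points in Alg1E against N2 (exact test, adjusted p = 0.0220), and without the Alg1E library of 27 h the log2 difference was 0.89 (exact test, adjusted p = 0.144). With no filter, edgeR gave miR-252-3p itself a difference of 2.04 in Alg1E against N2 (SE 0.323, adjusted p = 1.57e-06 over 404 miRNAs). Among the 94 hairpins that passed the minimum of 10 reads, limma called the ratio of minor to major arm higher in Alg1E than in N2 for 86.2%, and the median difference over all of them was 2.05 on the log2 scale.

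**Figure D4:**
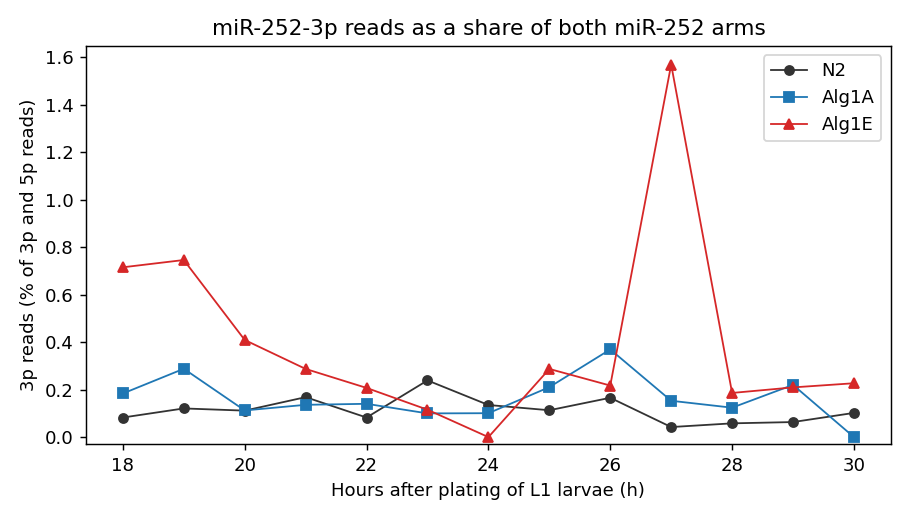
Reads of miR-252-3p as a percentage of the reads of both miR-252 arms (y axis) against hours after plating (x axis), 1 point per library. Alg1E is highest at 18, 19 and 27 h, with 0.715%, 0.746% and 1.57%, and the libraries of N2 lie between 0.0424% and 0.239%.

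The 2 members moved together over libraries as a description. Across all 39 libraries the log2 CPM of miR-251 and miR-252-5p had Pearson's r = 0.62, and 9 of the 208 other miRNAs with a mean of at least 10 CPM stood nearer to miR-251. Within N2 alone r was 0.65 and 8 other miRNAs stood nearer, within Alg1A 0.73 and 3, and within Alg1E 0.64 and 43. The miRNAs most like miR-251 over the 39 libraries were miR-124-3p (r = 0.71), a sensory neuron miRNA, miR-232-3p (0.69) and miR-86-5p (0.69). Over the 13 N2 libraries they were miR-239a-3p (0.89), miR-76-3p (0.85) and miR-235-3p (0.78). For miR-252-5p they were miR-2-5p (0.71), miR-86-5p (0.70) and miR-79-5p (0.68) over all libraries, and miR-60-5p (0.92), miR-236-5p (0.86) and miR-244-5p (0.79) in N2. The points share libraries, hours and scaling.

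Of 10 other miRNAs with relatives in insects, 0 were called higher and 6 lower by edgeR in Alg1E against N2, where 36.2% and 38.7% of all tested miRNAs were called higher and lower. Their log2 differences had a median of -0.40 against 0.01 for all miRNAs. The 6 were let-7-5p, a late larval timer (-0.98), miR-79-3p (-0.75), miR-234-3p (-0.50), miR-124-3p (-0.44), lin-4-5p, an early larval timer (-0.42), and miR-2-3p (-0.38). These directions depend on the scaling: with RLE 0 were called higher and 9 lower, with total counts 2 higher and 1 lower, and with TMM from major arms 2 higher and 0 lower. miR-252-5p stood at 0.54 in the same comparison and above 0 with each scaling. In Alg1A against N2, 0 of the 10 were called by edgeR, where 10.7% of all tested were, with a median of -0.02, and 0 had an unadjusted p under 0.05.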

How the data were processed

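The deposited file holds raw counts, whole numbers of reads for each mature miRNA, which the authors had not normalized. Libraries were made from total RNA (QIAseq miRNA kit, per the labels' protocols). The submitters' processing notes list ce11 as the build and name HTSeq, SAMtools 1.9, Bowtie 1.2.2 and cutadapt 2.3. Tool settings and the handling of molecular identifiers are not given in these sources. Summary entries of HTSeq were left out, among them reads without a feature (37.2% in N2, 35.3% in Alg1A and 49.5% in Alg1E, means of 13).

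edgeR 4.0.16 in R 4.3.3 fitted the counts with TMM factors. filterByExpr kept 243 miRNAs, and Benjamini-Hochberg adjustment ran over all of them. Genotypes were compared over 39 libraries with hour as a factor. Hour matches libraries by the design of the series. Time was a natural spline with 3 degrees of freedom. Windows were groups of genotype and hours. An SE is the log2 difference over the root of F. Arm ratios used limma 3.58.1 and ratios a prior count of 0.5. Exact sign-flip tests took all 8192 sign patterns of 13 hourly differences. For slopes, each difference was first multiplied by its hour minus the mean hour. These tests take the hours as independent and either sign of each difference as equally likely. The alternatives were DESeq2 1.42.0, other scalings, filters, splines and libraries. Neighbouring hours resembled each other for miR-251 in Alg1E against N2 (lag-1 correlation of the hourly differences 0.55), which can make its p-values too small.

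The members, lists and windows were chosen with earlier results of these data known. Named miRNAs are the members, the 3 most like each by Pearson's r of log2 CPM (prior count 2) and the called miRNAs of the conserved list. Others were named after their values were seen, as the only miRNAs of a count or as markers. A listing of relatives by seed sequence was planned and not made, and families were taken by name. The scripts were tested on simulated counts.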

Additional observations from a re-analysis of the deposited data

Results flagged for a closer look

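The time course of miR-251 differed between Alg1E and N2 in the test of the interaction, with a difference in fitted change of -1.21 on the log2 scale (edgeR adjusted p = 0.00246). The slope of the log2 ratio of miR-251 to miR-252-5p differed between Alg1E and N2 by -0.170 per hour (exact sign-flip test, adjusted p = 0.0205). Between Alg1E and Alg1A it differed by -0.115 per hour (exact sign-flip test, adjusted p = 0.030). Slopes of other pairs were not computed for comparison.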

How the results depend on the processing

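A difference was taken as kept when its direction and its side of the threshold stayed the same. A count of called miRNAs was taken as kept within a set fold of the main count, whichever miRNAs it held. The count of switching miRNAs was thus kept with total counts, though the miRNA was miR-1020-5p and not miR-251. With TMM from major arms the switching miRNAs were miR-1020-5p and miR-62, again without miR-251. Of the values under alternatives, 584 were kept by these rules and 81 were not. The causes were not tested. The alternatives without the Alg1E library of 27 h, against N2 2 h younger for time courses and slopes, the sign-flip and slope tests, the count of switching miRNAs and the marker scalings were chosen after seeing the data. The difference in time course of miR-251 between Alg1E and N2 was called in all 22 alternatives (-2.14 to -0.68). miR-251 in Alg1E against Alg1A changed sign with RLE (-0.0081), DESeq2 (-0.0083) and only the 2 genotypes compared (-0.023), and in Alg1E against N2 with N2 2 h younger (-0.13), where miR-252-5p was not called (0.42), the ratio was called (-0.54) and its slope was not (-0.161). With TMM from major arms, miR-251 was called over all hours (0.62) and not in late hours (-0.34), miR-252-5p was called in early (0.79) and late hours (0.77) and against Alg1A (0.60), and 2 miRNAs switched in place of 1. With total counts, miR-252-5p was called against Alg1A (0.45). With windows of 18 to 22 and 23 to 30 h, the late value of miR-251 was not called (-0.19) and those of miR-252-5p were (0.60 and 0.53). Without the Alg1E library of 27 h, miR-252-5p was called against Alg1A (0.36) and in late hours (0.60), differences that leaving out its lowest value was bound to raise. The miRNAs called in Alg1A against N2 went from 26 to 51 with only the 2 genotypes, 63 without the Alg1A libraries of 18 and 19 h and 102 against N2 2 h younger.

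For change over time, miR-251 in Alg1A was called with RLE (-0.62), total counts (-0.40), a straight line (-0.77) and without the Alg1A libraries of 18 and 19 h (-0.15), and in N2 it was called with a spline of 4 degrees of freedom (-0.41) and changed sign with a straight line (0.053). Without the Alg1A libraries of 18 and 19 h, the Alg1A curves were extended back to 18 h. miR-252-5p in N2 was not called with total counts (-0.84) or a straight line (-0.26). In Alg1E it changed sign with total counts (-0.15), major arms (-0.15), a straight line (-0.26) and no filter (-0.084), and in Alg1A without the libraries of 18 and 19 h (0.034). The time course difference between Alg1A and N2 changed sign for miR-251 with total counts (0.027) and without those libraries (0.37), and for miR-252-5p with a straight line (-0.033). Between Alg1E and Alg1A that of miR-252-5p changed sign with total counts (-0.12), major arms (-0.069) and without those libraries (-0.018), without which the slope difference was not called (-0.111).

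The arm ratio of miR-252 in Alg1E was called against N2 and Alg1A as points of share (0.284 and 0.234), with a prior of 5 reads (0.65 and 0.59) and with limma at 2 reads (1.18 and 0.90). Hour served as the replicate block. With no block, miR-252-5p in Alg1E against N2 differed by 0.56, and the arm ratio against N2 was called (1.18, permutation test, adjusted p = 0.0180), while no other call changed.

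Leaving out each hour in turn moved these values. Where 18 or 30 h was left out, the fitted curves were extended to that hour. The time course difference between Alg1E and N2 ranged from -1.77 (without 30 h) to -0.68 (without 18 h) for miR-251, called each time, and from 0.29 (without 30 h) to 1.11 for miR-252-5p, not called in any. The contrast of Alg1E with Alg1A ranged from -0.048 (without 18 h) to 0.18 for miR-251, and from 0.18 to 0.36 for miR-252-5p, called without 27 h. Change over time in N2 ranged from -0.68 to -0.14 for miR-251, called without 18 or 21 h, and from -1.0 to -0.51 for miR-252-5p, not called without 18, 19, 20, 21, 22, 26 or 30 h. In Alg1A it ranged from -1.20 (called without 18 h) to 0.12 (without 19 h) for miR-251, and from -0.51 to 0.20 (without 19 h) for miR-252-5p. In Alg1E that of miR-252-5p ranged from -0.36 (without 30 h) to 0.21. The time course difference between Alg1A and N2 ranged from -0.51 to 0.49 for miR-251, with the sign changed without 19, 21 or 22 h. Among those with the sign changed, the lowest edgeR adjusted p was 0.0465, under the threshold. Between Alg1E and Alg1A it ranged from -1.76 (called without 19 h) to -0.17 for miR-251, and from -0.24 to 0.71 for miR-252-5p, with the sign changed without 19 or 30 h. The log2 ratio in Alg1E against N2 ranged from -0.50 (called without 18 h) to -0.28. Its slope difference ranged from -0.186 to -0.144 (not called without 18 h) in Alg1E against N2, from -0.071 to -0.045 in Alg1A against N2 (called without 26 h), and from -0.128 to -0.097 in Alg1E against Alg1A (not called without 18, 20 or 28 h). The arm ratio in Alg1E ranged from 0.89 to 1.46 against N2 (called without 23, 24 or 26 h) and from 0.68 to 1.12 against Alg1A (called without 24 or 26 h).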
